A study of Mus musculus with 14 samples.

Results

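The 38 genes described here are immediate-early genes, regulators that feed back on NF-kB, and heat shock genes. They were taken from a list by symbol, all 38 were found among the 25124 genes of the deposited count table, and all 38 were among the 13434 genes with enough reads to test. The rule used no measured value, but the list was drawn up with earlier results of these data known, so it is not independent of them. Roles, 6 in all, were distinguished. There were 10 AP-1, Egr, Klf and Atf3 transcription factors, and 11 genes that feed back on kinase signals or on RNA and translation. Then came 4 NF-kB regulators and the early activation genes Cd69 and Rgs1. The rest were 6 stress-inducible cytosolic heat shock genes and 5 constitutive, mitochondrial or endoplasmic reticulum (ER) chaperones.

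Immediate-early genes are transcribed within minutes of a signal, without new protein synthesis, through factors that are already in the cell, such as SRF, CREB and NF-kB. Many of their products then shut the response down, by dephosphorylating MAP kinases, by destroying short-lived RNAs or by holding NF-kB in the cytoplasm. Heat shock genes are driven by HSF1 when unfolded protein accumulates. In T cells the first set follows antigen receptor signals, and both sets are known to be induced while a tissue is being digested and sorted. Signals in the tumour and signals during preparation cannot be told apart in these data.

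The libraries came from T cells of subcutaneous AE17-OVA tumours, a mouse mesothelioma line that carries the model antigen ovalbumin, in female C57BL/6 mice aged 8 to 12 weeks. Every group carried the same genotype, given in the labels as GATIR Foxp3Cre-rfp Gata3Cre-yfp, in which red fluorescence is driven by Foxp3, the gene that defines regulatory T cells (Tregs). On day 10 mice received 200 µg of anti-PD-L1 (clone MIH5) or of an isotype antibody (clone 2A3). Tumours were collected on day 13, taken here as counted from tumour injection. The treatment protocol instead words it as day 13 after treatment, so the length of exposure is uncertain. Sorting by CD4, CD25, PD-1 and the red reporter gave 3 populations, namely PD-1+ Tregs, PD-1- Tregs and the remaining CD4 T cells. There were 2 isotype and 3 treated libraries of CD4 T cells, 2 and 2 of PD-1- Tregs, and 2 and 3 of PD-1+ Tregs. The labels do not say whether a library is 1 mouse or a pool, so a p-value reflects only how these libraries vary.

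Total counts ran from 10638848 to 15030804 per library, and the 38 genes together took 1.51 to 2.13% of them. Libraries of PD-1- Tregs held reads for 8027 to 8801 genes, against 9662 to 11312 in PD-1+ Tregs and 12119 to 14535 in CD4 T cells. Reads of Y-linked genes, 2767 to 2966 per library, were found in 3 treated libraries, 1 in each population, although the labels call the mice female. All other libraries held at most 1 such read. The 3 were CD4 replicate 3, PD-1- Treg replicate 2 and PD-1+ Treg replicate 3, and results are given below with and without them. All 3, and no other library, carry the bracketed number 3 in their titles. The labels do not say whether this number marks a mouse or pool shared by the populations. Summed T cell markers reached 7204 to 10449 CPM (counts divided by the scaled library size) in every library. Summed Treg markers reached 1732 to 3292 CPM in the Treg libraries and 397 to 1373 in CD4 T cells. Markers of dendritic cells and MHC class II summed to 8879 to 49669 CPM, and those of macrophages and monocytes to 1787 to 11125 CPM, in every library of each sort. In sorted bulk samples, fewer cells of a type and less RNA per cell cannot be told apart.

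Short stretches of DNA before 4 of the genes are shown because they hold the element through which each gene is known to be switched on. RefSeq sequences of build GRCm38.p6 were matched for 30 of the 38 genes, and each search covered the 250 bases before a start, on both strands. The first 2 are the 150 bases before the starts of Hspa1a and Hspa1b, the inducible Hsp70 genes. They lie on the minus strand at chr17:34972157-34972306 and chr17:34959239-34959388, and capitals mark a heat shock element, searched as GAANNTTC or TTCNNGAA.
Hspa1a: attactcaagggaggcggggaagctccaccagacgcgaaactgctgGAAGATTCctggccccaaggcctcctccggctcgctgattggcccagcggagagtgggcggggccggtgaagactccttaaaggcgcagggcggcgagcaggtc
Hspa1b: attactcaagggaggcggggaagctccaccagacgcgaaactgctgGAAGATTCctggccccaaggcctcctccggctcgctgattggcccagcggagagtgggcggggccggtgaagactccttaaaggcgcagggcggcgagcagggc
These 2 stretches are identical at 149 of 150 bases. Over 50-base windows, 58.8% of the Hspa1a transcripts' windows also occur in Hspa1b transcripts, so reads could be split between both genes, and their separate values are uncertain. The third is a 30-base site on the plus strand at chr1:55088053-55088082, before Hspe1, which encodes the mitochondrial co-chaperonin Hsp10. Its capitals hold 3 overlapping heat shock elements.
Hspe1 site: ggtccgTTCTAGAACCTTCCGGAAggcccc
The site lies inside an annotated exon of the neighbouring Hspd1 transcript, since both genes run from 1 shared promoter in opposite directions and overlap by 96 bases. The last is the 150 bases before Nfkbia, on the minus strand at chr12:55492648-55492797, with an NF-kB element in capitals. Nfkbia encodes the inhibitor IkB-alpha and is itself a target of NF-kB.
Nfkbia: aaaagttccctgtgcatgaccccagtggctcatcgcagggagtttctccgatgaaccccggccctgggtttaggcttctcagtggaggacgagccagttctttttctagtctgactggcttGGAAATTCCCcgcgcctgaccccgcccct
A heat shock element of either form was present before 9 of the 30 matched genes and before 12.8% of all 32851 starts. An NF-kB element was present before 11 of the 30 and before 7.25% of all starts, and the cyclic AMP response element TGACGTCA before 4 (Btg2, Dusp1, Nfkbid and Ppp1r15a) and 1.55%. Genes with several starts were counted once if any start held the element, whereas the share of all starts is per start. The counts per gene and per start are thus not strictly alike. The heat shock and NF-kB counts both include Hspa1a with Hspa1b and Hspd1 with Hspe1, pairs with near-identical or shared sequence. A match is a description of the letters and not a bound site.

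Levels per length of transcript (the authors' RPKM, reads per kilobase scaled to mapped reads) spanned the whole range of expression. Dusp1, a phosphatase that inactivates MAP kinases, was highest at 1118 ± 244 RPKM (SD over 14 libraries), above 99.8% of the genes tested. Junb, an AP-1 subunit, followed at 706 ± 506, then Rgs1 at 577 ± 197, Hspa5, the ER chaperone BiP, at 520 ± 99.3, and Nfkbia at 425 ± 79.2. These neighbours in the order overlapped in their ranges. At the other end stood Klf4 at 6.53 ± 2.98 RPKM, Hspa1a at 4.00 ± 5.30 and Hspa1b at 0.209 ± 0.341. Hspa1b had no read in 9 of 14 libraries and Hspa1a none in 3, and these inducible Hsp70 genes were the least abundant of the list.

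Spread between replicates differed as much as level did. Among genes of similar level, the spread of Nfkbia within its groups lay at the 3.15 percentile, that of Hspe1 at 3.20 and that of Dnaja1 at 1.22, so these 3 were steady. Junb lay at the 98.8 percentile and Nfkbiz, another NF-kB regulator, at 97.8, with no read in 1 PD-1- Treg library and 164 CPM in another. The relative levels of all 38 genes in each library show where this spread sits.

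**Figure D1:**
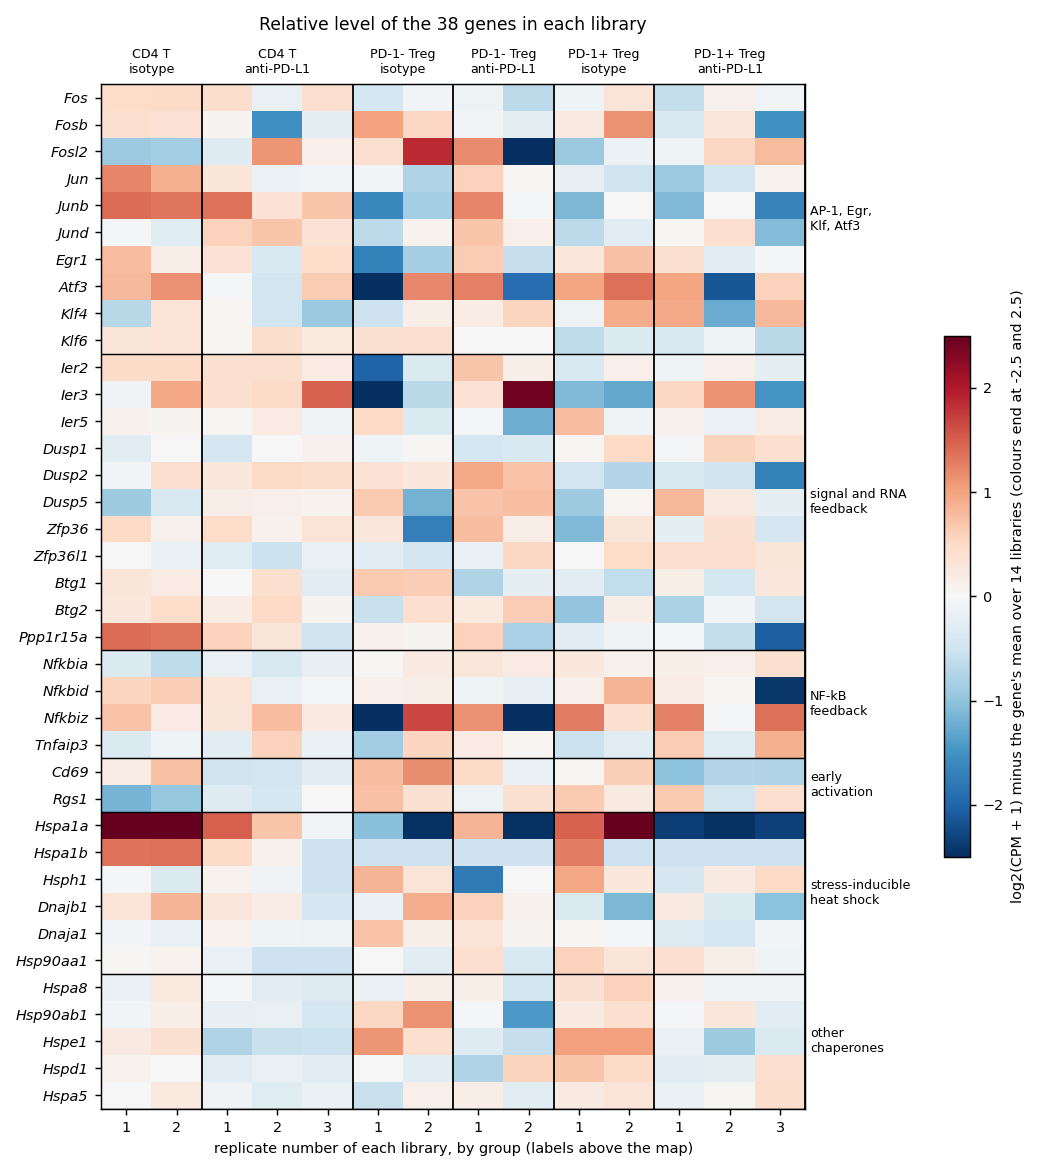
Heat map of the 38 genes (lines, in 6 blocks by role) in the 14 libraries (columns, by population and treatment). Colour is log2(CPM + 1) minus the gene's mean over the 14 libraries, ending at -2.5 and 2.5. Cd69 and Hspe1 are lower in the treated than in the isotype libraries of each population. Hspa1a is highest in the 2 isotype CD4 libraries and 1 isotype PD-1+ Treg library. Junb has its highest group mean in isotype CD4 T cells, and 1 treated CD4 library lies between the 2 isotype ones.

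Anti-PD-L1 was compared with isotype in each population and, in 1 further comparison, averaged over the 3 populations. Tests were edgeR's quasi-likelihood F-test over all genes, with Benjamini-Hochberg adjustment and a threshold of 0.05, and changes are log2 fold changes ± SE. The words rose and fell are kept for genes that passed. In the average, 1 of the 38 genes passed, Cd69, which fell. All genes gave 1.23% in either direction and 0.506% in the lower one.

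Cd69 encodes an early activation receptor that holds T cells in tissue by binding the egress receptor S1PR1. In CD4 T cells it stood at 481 and 705 CPM under isotype and at 299, 309 and 350 CPM under anti-PD-L1. In PD-1- Tregs the values were 723 and 955 against 593 and 371 CPM, and in PD-1+ Tregs 435 and 639 against 208, 254 and 253 CPM. Every treated library was below every isotype library of its own population. Averaged over populations Cd69 fell by 0.95 ± 0.16 on the log2 scale (adjusted p = 0.0126), and without the 3 libraries with Y-linked reads by 0.92 (adjusted p = 0.0360). Taken singly, CD4 T cells gave -0.89 ± 0.26 (adjusted p = 1), PD-1- Tregs gave -0.80 ± 0.29 (0.166) and PD-1+ Tregs gave -1.17 ± 0.26 (0.479). Across 23 alternatives the average lay between -1.10 and -0.87 and passed in 20, and it did not pass without CD4 isotype replicate 2 (adjusted p = 0.0661), with the replicate number as a block (0.0652) or with library quality weights in limma (0.184). B cells also express Cd69, and summed B cell markers stood at 208 to 232 CPM under isotype and 53.6 to 83.0 CPM under treatment in CD4 T cells, at 219 to 399 against 22.9 to 82.2 in PD-1+ Tregs, and at 80.5 to 96.3 against 42.0 to 304 in PD-1- Tregs. Whether these cells had a part in the Cd69 values was not tested.

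Hspe1 had the same pattern of libraries and did not pass. It stood at 81.4 and 90.6 CPM under isotype and 40.5, 46.8 and 47.1 CPM under treatment in CD4 T cells, at 151 and 92.7 against 55.0 and 45.8 in PD-1- Tregs, and at 142 and 142 against 61.9, 36.8 and 53.5 in PD-1+ Tregs. All 8 treated libraries were thus below all 6 isotype libraries, whatever the population. The averaged change was -1.23 ± 0.29 (adjusted p = 0.0666), and it passed under 7 of 23 alternatives, with adjusted p from 1.47e-07 to 0.297. Cd69 and Hspe1 were the 2 of 38 genes whose arms did not overlap, in 1 direction, in all 3 populations, against 1.5% of all genes in either direction and 0.878% in the lower one. Hspd1, the Hsp60 partner that Hspe1 shares its promoter with, had arms that did not overlap in PD-1+ Tregs (-0.59 ± 0.36) and CD4 T cells (-0.30 ± 0.37) and overlapping ones in PD-1- Tregs, where it stood at 186 and 152 against 109 and 274 CPM.

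Of the inducible Hsp70 genes, Hspa1a stood at 33.9 and 41.1 CPM under isotype and at 14.6, 7.93 and 4.28 CPM under treatment in CD4 T cells. PD-1+ Tregs had 14.4 and 49.3 CPM under isotype and 0.0858, 0 and 0.0974 CPM under treatment, which is 793 reads against 2. Pooled, that ratio was 562-fold (95% counting interval 155 to 4652), and in CD4 T cells 1031 reads against 382 gave 4.07-fold (3.62 to 4.59). PD-1- Tregs showed no such order, with 1.68 and 0 CPM against 9.02 and 0. Hspa1a passed in none of the 3 (adjusted p = 0.578 for PD-1+ Tregs, 0.730 for PD-1- Tregs and 1 for CD4 T cells). Hspa1b had 73 reads against 22 in CD4 T cells, 29 against 0 in PD-1+ Tregs, all 29 from 1 library, and 0 in all 4 PD-1- Treg libraries. Intervals cover counting error only, since reads amplified without molecular identifiers are not independent molecules.

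Hsp90ab1, the constitutive cytosolic Hsp90, stood at 1623 and 2449 CPM under isotype and 1083 and 418 CPM under treatment in PD-1- Tregs. The values for CD4 T cells were 1081 and 1268 against 973, 996 and 825 CPM, and in PD-1+ Tregs 1324 and 1481 against 1082, 1368 and 923. The arms overlapped only in PD-1+ Tregs, where 1 treated library lay between the isotype ones. Its averaged change was -0.70 ± 0.19 (adjusted p = 0.118), with -1.44 ± 0.36 in PD-1- Tregs (adjusted p = 0.0571).

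**Figure D2:**
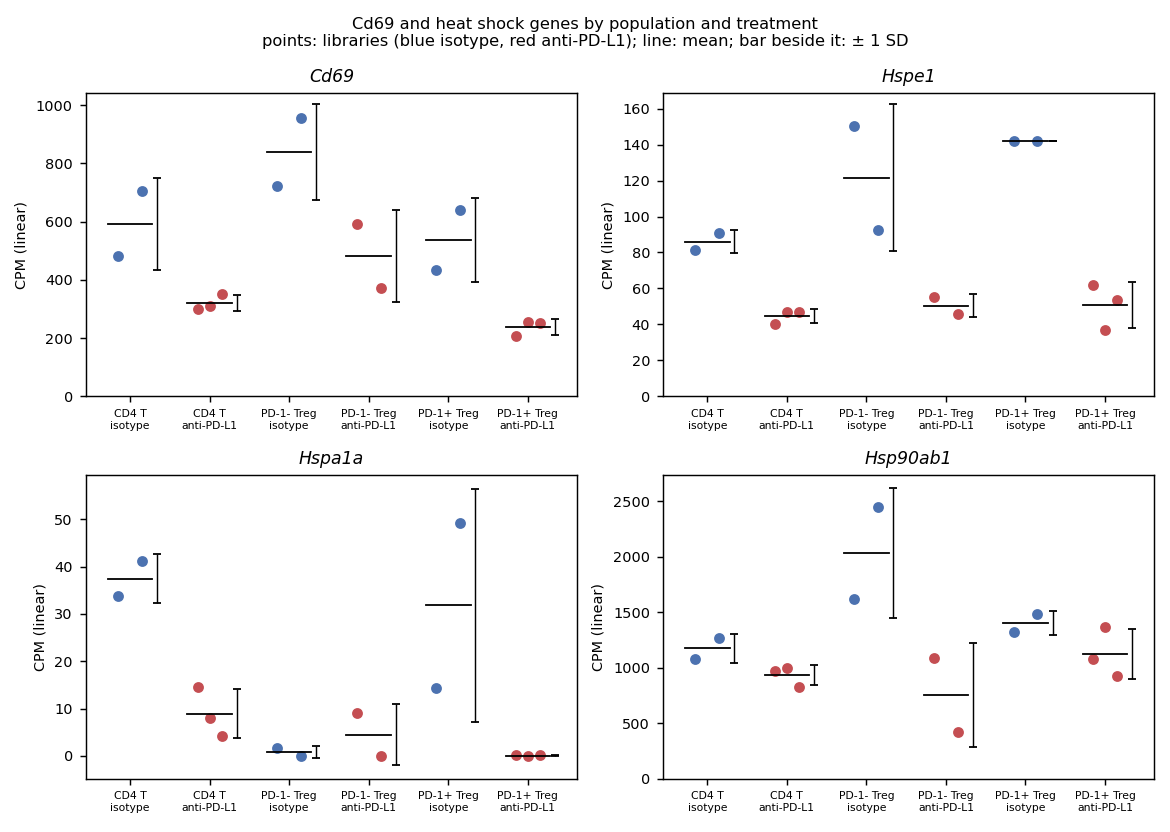
Level of Cd69, Hspe1, Hspa1a and Hsp90ab1 (CPM, linear axis) by population and treatment, each point 1 library, blue for isotype and red for anti-PD-L1, with the group mean as a line and ± 1 SD as a bar beside it. For Cd69 and Hspe1 the red points lie below the blue ones of the same population, Hspa1a is at or near 0 in treated PD-1+ Tregs and in all but 1 library of PD-1- Tregs, where that library reached 9.02 CPM, and Hsp90ab1 arms overlap in PD-1+ Tregs.

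Among the other chaperones, Hspa5 stood at 1510 and 1819 CPM against 1429, 1238 and 1354 in CD4 T cells, at 1045 and 1665 against 1715 and 1276 in PD-1- Tregs, and at 1799 and 1906 against 1365, 1563 and 2083 in PD-1+ Tregs, overlapping in both Treg types. Hsp90aa1, the inducible Hsp90, stood at 200 and 209 against 172, 138 and 136 CPM in CD4 T cells, at 196 and 163 against 264 and 150 in PD-1- Tregs, and at 292 and 243 against 263, 217 and 182 in PD-1+ Tregs. Dnajb1, the Hsp40 that works with inducible Hsp70, stood at 356 and 509 against 342, 321 and 212 CPM in CD4 T cells, 252 and 529 against 419 and 305 in PD-1- Tregs, and 219 and 129 against 329, 221 and 139 in PD-1+ Tregs. For these 3 genes every treated CD4 library was below both isotype ones, and no such order held in either Treg type. Hspa8, the constitutive Hsp70, had a change of -0.50 ± 0.21 in PD-1+ Tregs without overlap and of -0.30 ± 0.13 in the average (adjusted p = 0.294). Hsph1, an Hsp70 exchange factor, stood at 207 and 143 against 32.9 and 114 CPM in PD-1- Tregs (-1.25 ± 0.57, adjusted p = 0.241), and passed there (adjusted p = 0.0421) without the libraries with Y-linked reads, when a single treated library is left. Dnaja1, another Hsp40, changed by -0.27 ± 0.36 in PD-1+ Tregs without overlap. By group, 0 of 6 stress-inducible genes and 0 of 5 other chaperones passed in any treatment comparison, with averaged medians of -0.38 and -0.30.

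Single-population tests passed for none of the 38 genes in PD-1+ Tregs, PD-1- Tregs or CD4 T cells, against 0.0149%, 2.66% and 0.00744% of all genes. At an unadjusted p below 0.05 the counts were 5, 9 and 4 of 38, against 8.06%, 20.1% and 1.15% of all genes. DESeq2's Wald test called 3, 6 and 0 of the 38, and limma-voom 1, 2 and 0, and shares of all genes under these tests are not given. In PD-1+ Tregs all 5 were lower (Cd69, Hspa1a, Hspa1b, Hspa8 and Hspe1), where all genes gave 5.22% lower and 2.84% higher. In PD-1- Tregs Egr1, Ier2, Junb and Zfp36l1 were higher (all genes 9.49%) and Btg1, Cd69, Hsp90ab1, Hspe1 and Hsph1 lower (all genes 10.6%). Among CD4 T cells Rgs1 was higher (all genes 0.67%) and Cd69, Jun and Ppp1r15a lower (all genes 0.484%). The average gave 4 of 38, all lower (Cd69, Hsp90ab1, Hspa8 and Hspe1), against 14.8% of all genes in either direction.

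Median changes over the 38 genes were -0.17 in PD-1+ Tregs, where the median of all genes tested was 0, 0.06 in PD-1- Tregs (all genes 0), and -0.23 in CD4 T cells (all genes -0.01). Arms without overlap were counted for 8 genes in PD-1+ Tregs (1 higher and 7 lower, against 7.69% and 11.5% of all genes), for 20 in PD-1- Tregs (10 and 10, against 12.5% and 14%), and for 21 in CD4 T cells (4 and 17, against 12.5% and 15.5%). The 4 higher genes in CD4 T cells were Dusp5, Fosl2, Jund and Rgs1, and the 1 in PD-1+ Tregs was Fosl2, an AP-1 subunit, at 20.0 and 35.0 against 36.3, 56.2 and 67.8 CPM. Other markers moved in CD4 T cells as well: summed mesothelial, fibroblast and endothelial markers were at 1114 to 1462 CPM under isotype and 292 to 786 under treatment, and summed Treg markers at 397 to 453 and 979 to 1373. Their part in these counts was not tested.

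**Figure D3:**
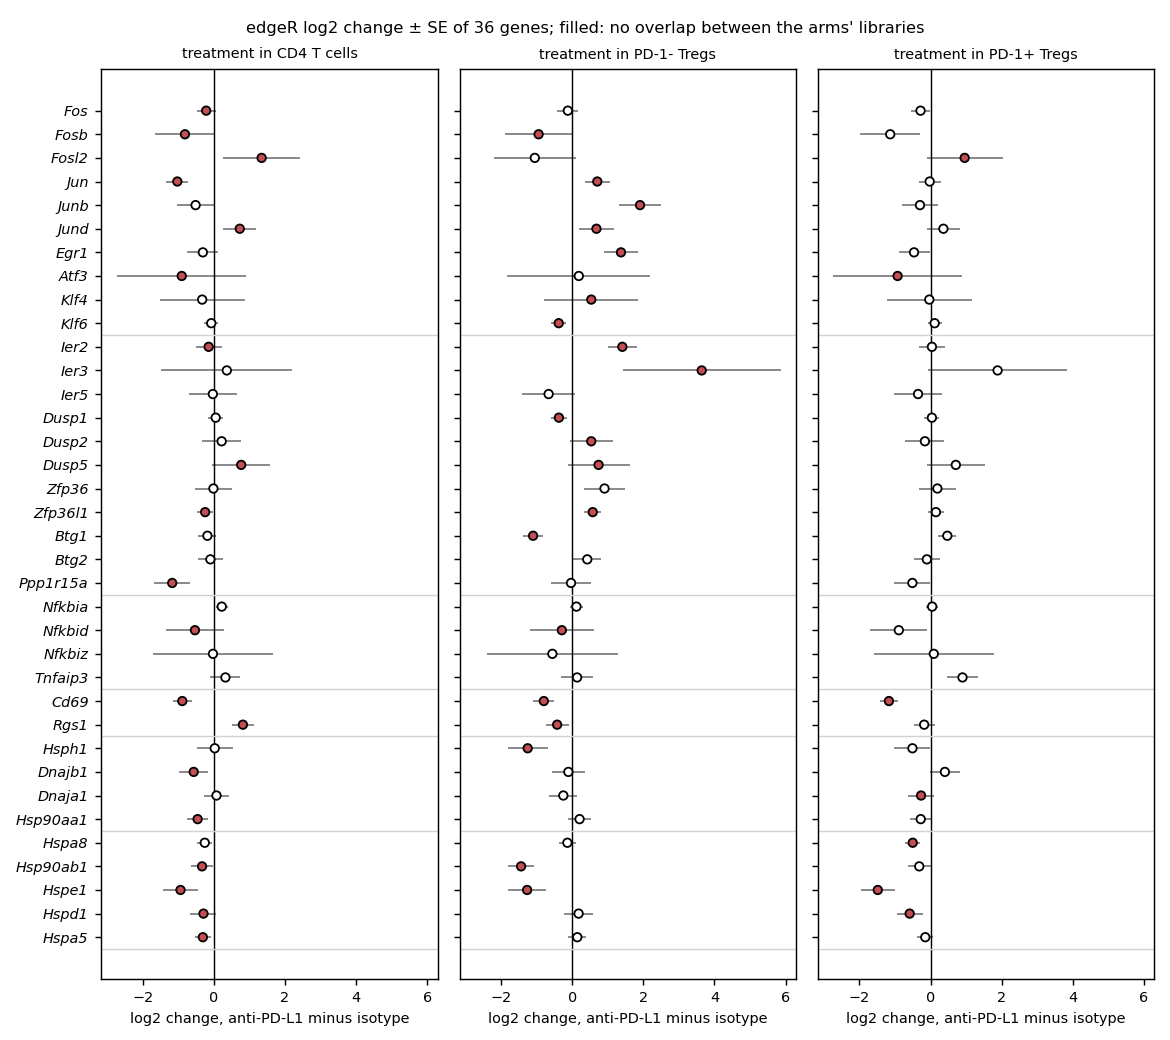
Log2 change (anti-PD-L1 minus isotype, horizontal axis) with ± SE from edgeR for 36 genes, 1 panel per population, lines between the 6 roles. Filled points mark genes whose arms did not overlap, and Hspa1a and Hspa1b are left out because their counts were near 0 in a treated arm. In CD4 T cells most filled points lie left of 0, while in PD-1- Tregs those of Jun, Junb, Jund, Egr1 and Ier2 lie to the right.

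None of the 10 transcription factors passed under treatment. Junb stood at 370 and 631 CPM under isotype and 2633 and 1119 CPM under treatment in PD-1- Tregs, a change of 1.91 ± 0.58 (adjusted p = 0.106). In CD4 T cells it was at 3012 and 2890 against 2899, 1456 and 1832 CPM, and in PD-1+ Tregs at 524 and 1139 against 530, 1143 and 354. Only PD-1- Tregs had arms without overlap. Jun, the partner of Fos in AP-1, stood at 1066 and 842 against 560, 410 and 431 CPM in CD4 T cells (-1.03 ± 0.31, adjusted p = 1), at 433 and 269 against 674 and 469 in PD-1- Tregs (0.70 ± 0.34, 0.272), and at 394 and 321 against 242, 326 and 486 in PD-1+ Tregs. Treated libraries were thus lower in CD4 T cells, higher in PD-1- Tregs and overlapping in PD-1+ Tregs. Fos stood at 1185 and 1210 against 1178, 763 and 1147 CPM in CD4 T cells, at 633 and 824 against 791 and 545 in PD-1- Tregs, and at 804 and 1081 against 568, 930 and 827 in PD-1+ Tregs. Only in CD4 T cells were all treated Fos libraries below the isotype ones, closely so for replicate 1. Egr1, a zinc finger factor downstream of ERK, was at 49.7 and 91.0 against 255 and 109 CPM in PD-1- Tregs (1.37 ± 0.49, adjusted p = 0.159). Its arms overlapped elsewhere, at 278 and 184 against 209, 125 and 223 CPM in CD4 T cells (-0.31 ± 0.44), and at 196 and 272 against 214, 134 and 161 in PD-1+ Tregs (-0.47 ± 0.44). The arms of Jund did not overlap in PD-1- Tregs (0.68 ± 0.50) or CD4 T cells (0.73 ± 0.47). Of the rest, arms did not overlap for Fosb (-0.95 ± 0.94), Klf6 (-0.38 ± 0.21) and Klf4 (0.53 ± 1.32) in PD-1- Tregs. The same held in CD4 T cells for Fosb (-0.82 ± 0.84), Atf3 (-0.91 ± 1.81) and Fosl2 (1.34 ± 1.09). Atf3, a stress-induced factor, was also lower in PD-1+ Tregs (-0.93 ± 1.81), where 1 treated library stood at 41.7 CPM and the lower isotype one at 42.0.

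None of the 11 feedback genes passed either. Ier2, a nuclear protein induced by growth signals, stood at 155 and 486 against 1010 and 691 CPM in PD-1- Tregs (1.41 ± 0.41, adjusted p = 0.0895), at 869 and 871 against 824, 817 and 713 in CD4 T cells, and at 477 and 682 against 577, 678 and 529 in PD-1+ Tregs. It was thus higher in PD-1- Tregs, lower by a small margin in CD4 T cells and overlapping in PD-1+ Tregs. Dusp1 stood at 2032 and 2475 against 1855, 2456 and 2679 CPM in CD4 T cells, at 2308 and 2536 against 1823 and 1909 in PD-1- Tregs, and at 2557 and 3520 against 2409, 3634 and 3305 in PD-1+ Tregs. The most abundant gene of the list thus had arms without overlap only in PD-1- Tregs (-0.38 ± 0.23, adjusted p = 0.392). Btg1, an anti-proliferative gene of resting lymphocytes, was at 1349 and 1312 against 514 and 726 CPM in PD-1- Tregs (-1.10 ± 0.28, adjusted p = 0.0597), and it passed without the libraries with Y-linked reads (-1.40, adjusted p = 0.0424). Zfp36l1, which promotes decay of AU-rich RNAs, stood at 694 and 609 against 741 and 1201 CPM there and at 832 and 746 against 682, 577 and 734 in CD4 T cells. Ppp1r15a, the phosphatase subunit GADD34 that restores translation after stress, was at 909 and 869 against 514, 424 and 244 CPM in CD4 T cells (-1.17 ± 0.51, adjusted p = 1). Without overlap in PD-1- Tregs were also the phosphatases Dusp2 (0.53 ± 0.60) and Dusp5 (0.74 ± 0.87), and Ier3 (3.64 ± 2.22), which had no read in 1 isotype library. Dusp5 changed by 0.77 ± 0.81 in CD4 T cells, again without overlap, and Zfp36, Btg2 and Ier5 overlapped in every population.

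The difference between populations in the treatment change was itself tested, and 0 of 38 genes passed in each of the 3 contrasts. Against these stood 1.46% of all genes between the Treg types, 0% between PD-1+ Tregs and CD4 T cells and 0.975% between PD-1- Tregs and CD4 T cells. At an unadjusted p below 0.05 the counts were 6, 2 and 8 of 38, against 16.4%, 3.5% and 14.3% of all genes. DESeq2 called 4, 0 and 3, and its shares of all genes are not given. The lowest adjusted p was that of Btg1 between the Treg types (1.57 ± 0.38, adjusted p = 0.0680). For Junb the difference was 2.42 ± 0.77 between PD-1- Tregs and CD4 T cells (adjusted p = 0.192). The contrasts share libraries with each other and with the single treatment comparisons.

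None of the 4 NF-kB regulators passed under treatment. Nfkbia stood at 601 and 496 against 672, 579 and 666 CPM in CD4 T cells, at 781 and 890 against 934 and 878 in PD-1- Tregs, and at 916 and 826 against 844, 835 and 1015 in PD-1+ Tregs. Its arms overlapped in all 3 populations, with an averaged change of 0.13 ± 0.10. Tnfaip3, the ubiquitin editor A20, stood at 288 and 340 against 303, 547 and 327 CPM in CD4 T cells, at 200 and 529 against 421 and 380 in PD-1- Tregs, and at 252 and 301 against 567, 297 and 681 in PD-1+ Tregs. Those arms overlapped too, in PD-1+ Tregs through replicate 2, whose 297 CPM lay between the isotype values. Nfkbid had arms without overlap in PD-1- Tregs (-0.29 ± 0.90) and likewise in CD4 T cells (-0.53 ± 0.81).

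Populations were then compared with the treated and isotype groups at equal weight. Among the 38 genes 2 passed between the Treg types, Klf6 and Cd69, both lower in PD-1+ than in PD-1- Tregs, where 4.28% of all genes passed and 0.476% in that direction. Another 2 passed between PD-1- Tregs and CD4 T cells, Rgs1 and Nfkbia, both higher in the Tregs, where 3.6% of all genes passed and 0.275% in that direction. None passed between PD-1+ Tregs and CD4 T cells, against 0.35% of all genes. There 12 of 38 had an unadjusted p below 0.05 (12.4% of all genes). DESeq2 called 7 there and limma-voom 5, and shares of all genes under these tests are not given. The unadjusted counts were 8 between the Treg types (22.3% of all genes) and 9 between PD-1- Tregs and CD4 T cells (28.6%). Ranges did not overlap for Dnaja1, Dusp2 and Klf6, 3 genes lower in PD-1+ than PD-1- Tregs (0.782% of all genes). Against CD4 T cells, PD-1+ Tregs were higher without overlap in Nfkbia and Zfp36l1 (1.71%) and lower in Dusp2, Ier2, Junb and Klf6 (4.72%), and PD-1- Tregs were higher in Nfkbia (1.01%). These 3 comparisons share libraries, and their values are given side by side.

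Klf6, a zinc finger factor induced early after activation, was measured in PD-1+ Tregs at 443 and 543 CPM with isotype and at 530, 641 and 432 CPM with anti-PD-L1. In PD-1- Tregs it was at 906 and 913 and at 700 and 698 CPM, and in CD4 T cells at 857 and 881 and at 716, 939 and 819. All 5 PD-1+ libraries were below all 9 others. Klf6 fell by 0.63 ± 0.14 from PD-1- to PD-1+ Tregs (adjusted p = 0.0298), and the difference from CD4 T cells was -0.72 ± 0.14 (adjusted p = 0.0539). Without the libraries with Y-linked reads the first did not pass (-0.56, adjusted p = 0.1002), and it passed under 10 of 25 alternatives. Cd69 was lower in PD-1+ than PD-1- Tregs by a log2 change of -0.83 ± 0.20 (adjusted p = 0.0367, and 0.0411 without those libraries), passed under 11 of 25 alternatives, and its ranges overlapped. Leaving out single libraries ended both calls in most cases. Klf6 did not pass without any 1 of the 2 isotype libraries of any population, CD4 treated replicates 1 or 3, or PD-1- treated replicate 2 (adjusted p = 0.0504 to 0.132). Cd69 did not pass without any 1 of the 5 CD4 libraries, PD-1- isotype replicate 2, PD-1- treated replicate 1, PD-1+ isotype replicate 1 or PD-1+ treated replicates 1 or 2 (0.0531 to 0.135).

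Rgs1 encodes a regulator that ends signals from chemokine receptors. In CD4 T cells it was at 372 and 436 CPM with isotype and 671, 621 and 837 CPM with anti-PD-L1, at 1394 and 1090 and at 764 and 1086 in PD-1- Tregs, and finally at 1318 and 980 and at 1312, 610 and 1120 in PD-1+ Tregs. Under isotype all Treg libraries were above both CD4 ones, while treated libraries of the populations overlapped. PD-1- Tregs exceeded CD4 T cells by 1.00 ± 0.22 (adjusted p = 0.0284), and for PD-1+ Tregs the difference was 1.01 ± 0.21 (adjusted p = 0.0734). For Nfkbia all 9 Treg libraries, at 781 CPM or more, were above all 5 CD4 libraries, at 672 CPM or less. The differences from CD4 T cells were 0.56 ± 0.12 for PD-1- Tregs (adjusted p = 0.0308) and 0.58 ± 0.12 for PD-1+ Tregs (adjusted p = 0.0712). Without the libraries with Y-linked reads the PD-1- values were 0.90 for Rgs1 (adjusted p = 0.115) and 0.56 for Nfkbia (0.0723), and the calls passed under 14 and 15 of 25 alternatives. Neither passed without any 1 of the 5 CD4 libraries, Rgs1 not without PD-1- isotype replicate 1 or treated replicate 2 (adjusted p = 0.0576 to 0.127), and Nfkbia not without PD-1- isotype replicate 2 (0.0607 to 0.151).

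**Figure D4:**
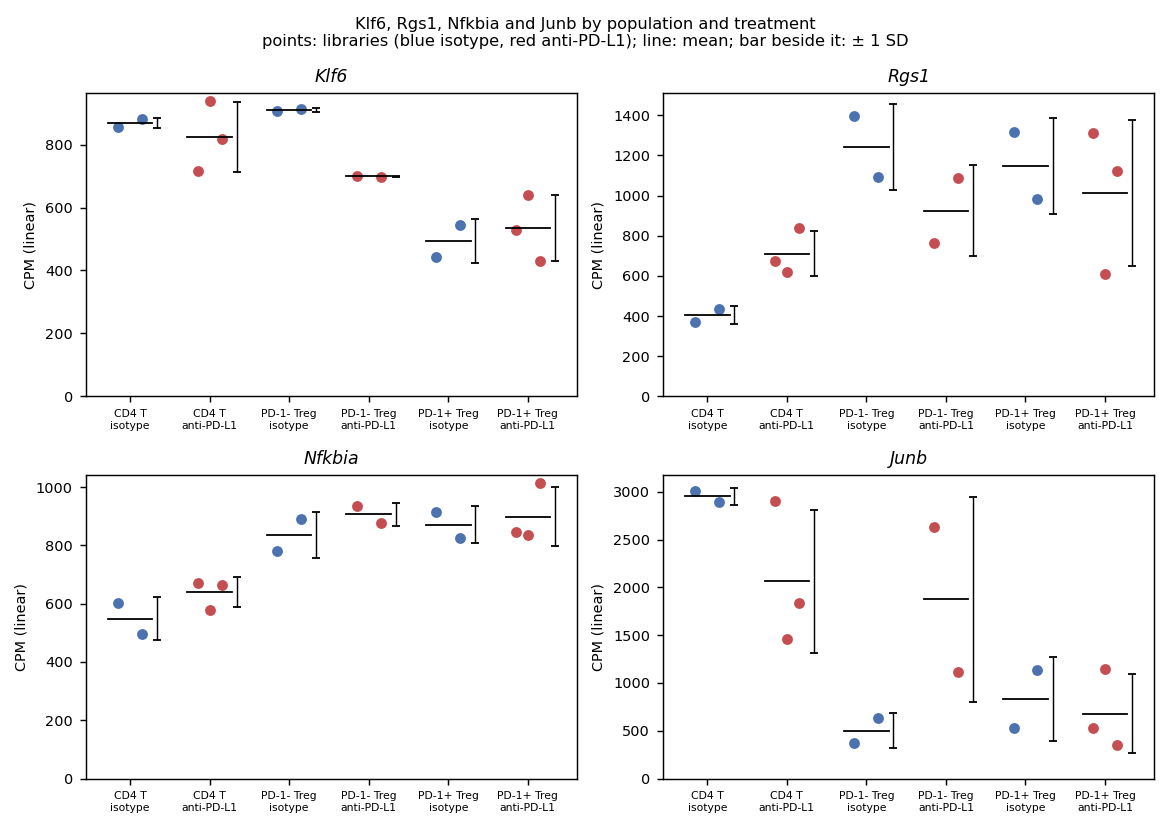
Level of Klf6, Rgs1, Nfkbia and Junb (CPM, linear axis) by population and treatment, each point 1 library, blue for isotype and red for anti-PD-L1, with the group mean as a line and ± 1 SD as a bar beside it. Klf6 is lowest in all 5 PD-1+ Treg libraries, Nfkbia is above 672 CPM in all 9 Treg libraries and not above it in CD4 T cells, and Junb reaches 3012 CPM in isotype CD4 T cells.

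Junb, Jun and Fos had their highest means in CD4 T cells. Junb differed by -1.72 ± 0.38 between PD-1+ Tregs and CD4 T cells (adjusted p = 0.0917) with no overlap of the 10 libraries, and by -1.35 ± 0.39 between PD-1- Tregs and CD4 T cells (adjusted p = 0.0730). The values for Jun were -0.91 ± 0.22 and -0.57 ± 0.23, and those for Fos -0.38 ± 0.19 and -0.67 ± 0.20, none of which passed. Summed over the 10 transcription factors, isotype libraries held 6244 to 6632 CPM in CD4 T cells, 2614 to 3124 in PD-1- Tregs and 2562 to 3674 in PD-1+ Tregs. Treated libraries held 3999 to 5843, 3135 to 5437 and 2347 to 3440 CPM in the same order, so treated PD-1- Tregs overlapped CD4 T cells. The sums of the 11 feedback genes ran from 5393 to 7281 CPM over all 14 libraries. Macrophage and monocyte markers, cells that also transcribe these genes, summed to 1787 to 2224 CPM in PD-1- Tregs and 4656 to 11125 CPM in the other populations, and their part was not tested. Median differences over the 38 genes were 0.02 between the Treg types (all genes tested 0.42), 0.03 between PD-1+ Tregs and CD4 T cells (all genes -0.23) and -0.05 between PD-1- Tregs and CD4 T cells (all genes -0.94).

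Genes around the 38 in the same pathways were counted from 6 lists: 32 other immediate-early genes, 22 NF-kB subunits, kinases and targets, 17 kinases and SRF factors, 30 genes of HSF1 and co-chaperones, 8 TRiC chaperonin subunits and 22 genes of ER stress and folding. None of the 30 HSF1 and co-chaperone genes or the 8 TRiC subunits passed in any of the 10 comparisons. Summed TRiC levels were lower in every treated library than in either isotype library of its population. Isotype and treated sums were 2468 to 2492 and 1958 to 2222 CPM for CD4 T cells. PD-1- Tregs gave 2670 to 2901 and 2169 to 2328 CPM, and PD-1+ Tregs 3195 to 3304 and 1821 to 2625 CPM. HSF1 and co-chaperone sums were also lower, except for an overlap among PD-1- Tregs, whereas kinase and SRF sums were higher throughout. No sum was tested. In PD-1- Tregs under treatment 2 of 32 immediate-early genes fell, 2 of 22 NF-kB genes and 3 of 17 kinases rose, and 1 of 22 ER genes fell, where 2.66% of all genes passed. Ccl3, a chemokine and NF-kB target, had no read in either isotype library and 11.9 and 66.8 CPM under treatment, at least 136-fold higher against a floor of 3 counts per library (adjusted p = 0.0175). Icam1, an adhesion molecule and NF-kB target, rose from 1.86 and 0 CPM to 189 and 123 CPM, pooled 172-fold with a counting interval of 111 to 282 (adjusted p = 0.0185). Gadd45b, a stress-induced signalling adaptor, had 20.8 and 10.7 CPM under isotype and no read under treatment, at least 66.3-fold lower (adjusted p = 0.0156). Dusp6, the phosphatase that reverses ERK, stood at 14.2 and 65.4 CPM against 1 read in each treated library, a pooled ratio of 0.00196 (0.000237 to 0.00710) and an adjusted p of 0.00249. None of these 4 calls passed with quality weights (adjusted p = 0.476 to 0.530) or when only the compared groups were fitted (0.705), and with the title number as a replicate block Ccl3 (0.0600) and Gadd45b (0.0739) did not pass. In the average over populations, where 1.23% of all genes passed, Ccl3 and Crem, a cyclic AMP-responsive factor, rose and Dusp6 fell (adjusted p = 0.0438, 0.0339 and 0.00797). The rise of Ccl3 and Crem did not pass without the libraries with Y-linked reads (0.0998 and 0.0954), while Dusp6 did (0.0304). Dusp6 in turn did not pass with quality weights (0.325), on log2(RPKM + 1) (0.151) or with the title-number block (0.0681). Nor did Ccl3 or Crem pass without any 1 of the CD4 libraries or most of the PD-1+ ones (0.0566 to 0.279). In PD-1+ Tregs and CD4 T cells none of these genes passed. Log2 changes in PD-1- Tregs were -8.81 for Dusp6 and 11.9 for Ccl3, against -3.14 and 4.49 in the average. The arms of Dusp6 overlapped in CD4 T cells, at 88.3 and 93.3 against 121, 76.1 and 128 CPM. They also overlapped in PD-1+ Tregs, at 116 and 77.3 against 78.3, 43.2 and 35.7 CPM. Ccl3 overlapped in PD-1+ Tregs, at 48.7 and 37.7 against 39.3, 12.2 and 72.8 CPM. In CD4 T cells it did not, at 15.6 and 10.7 against 28.9, 20.9 and 69.2 CPM.

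Batf3, Egr2 and Nr4a2, from the list of other immediate-early genes, had almost no reads in PD-1- Tregs. These libraries also held reads for fewer genes (8027 to 8801, against 9662 to 14535 elsewhere) and less of the summed macrophage and monocyte markers (1787 to 2224 CPM, against 4656 to 11125), cells that also express Egr2 and Nr4a2, and the part of either was not tested. Against PD-1- Tregs, PD-1+ Tregs were higher in 5 of 32 other immediate-early genes and lower in 1, and PD-1- Tregs were lower than CD4 T cells in 5, where 4.28% and 3.6% of all genes passed. From the NF-kB and kinase lists Ccl3 and Crem were higher and Birc3 lower in PD-1+ than PD-1- Tregs, and Ccl3 was lower in PD-1- Tregs than in CD4 T cells. The 5 immediate-early genes were Batf3, Egr2, Nr4a2, Gadd45b and Dusp6 in both, which share the PD-1- libraries. Gadd45b and Dusp6 had at most 1 read in each treated PD-1- library, and 10.7 to 20.8 and 14.2 to 65.4 CPM under isotype. Their treatment change in PD-1- Tregs differed from both other populations (adjusted p = 0.00794 to 0.0480). Ccl3 was at 0 only in isotype PD-1- libraries, and treated ones (11.9 and 66.8 CPM) overlapped the other populations. Its treatment change differed from that in PD-1+ Tregs (0.0374). None of these differences passed with quality weights (0.476 to 0.600). Of 25 alternatives Gadd45b passed in 8 against PD-1+ Tregs and 9 against CD4 T cells, Dusp6 in 17 and 19, and Ccl3 in 10. Without any 1 of the treated CD4 libraries Gadd45b (0.0888 to 0.109) and Ccl3 (0.0640 to 0.0802) did not pass. Dusp6 did not pass with a replicate block (0.0550 to 0.117) or on log2(RPKM + 1) (0.205 and 0.340). Leaving out the libraries with Y-linked reads left 1 treated PD-1- library, and the log2 differences kept their sign. Batf3, an AP-1 family factor, had no read in 4 of 4 PD-1- libraries, 4.39 to 25.3 CPM in PD-1+ Tregs and 9.87 to 17.0 CPM in CD4 T cells, at least 55.9-fold and 52.2-fold more. Egr2, a zinc finger factor of the Egr family, was at 0 to 0.887 CPM in PD-1- Tregs, 15.0 to 105 CPM in PD-1+ Tregs and 24.1 to 63.7 CPM in CD4 T cells (adjusted p = 0.0107 and 0.0122). Nr4a2, an orphan nuclear receptor induced by receptor signals, was at 0 to 0.372 CPM against 10.7 to 71.6 and 8.08 to 27.1 CPM (adjusted p = 0.0106 and 0.0221). For these 3 genes no PD-1- library reached any library of the other populations. Without the libraries with Y-linked reads, Egr2 and Nr4a2 passed in both comparisons, and Batf3 passed against PD-1+ Tregs (adjusted p = 0.0451) and not against CD4 T cells (0.0548). That last call was also lost without CD4 isotype replicate 2 (0.0580), and those of Nr4a2 and Gadd45b against CD4 T cells without either isotype replicate or treated replicates 1 or 3 of these (0.0579 to 0.0781 and 0.0506 to 0.0758). With quality weights Batf3, Egr2, Nr4a2 and Gadd45b passed in neither comparison (0.0610 to 0.155), and fitting only the Treg groups they did not pass between the Treg types (0.174 to 0.226). With the block by treatment and bracketed number they passed in neither (0.0750 to 0.166). Of 22 ER genes 1 passed between the Treg types, Hsp90b1, the ER form of Hsp90, named after its values were seen. Its mean was 939 ± 131 CPM over 5 PD-1+ libraries and 599 ± 166 CPM over 4 PD-1- libraries. The log2 change was 0.68 ± 0.14 (adjusted p = 0.0161). Without PD-1+ isotype replicate 2, which left 1 library in that group, it was 0.57 and the call was lost. Hsp90b1 also did not pass with quality weights (0.136) or fitting only the Treg groups (0.173). Nor did it on log2(RPKM + 1) (0.0503) or with the bracketed-number block (0.0653). Isotype libraries overlapped, at 696 and 780 CPM in PD-1- and 770 and 1010 CPM in PD-1+ Tregs. Treated ones did not, at 488 and 431 CPM against 1025, 1063 and 829 CPM.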

How the data were processed

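Smart-seq2 libraries were compared as described above. Per the file headers and the labels, each of 14 libraries has raw counts of reads per gene and the authors' RPKM. HISAT2 2.0.4, HOMER 3.12, SAMtools and DESeq2 are listed with mm10 in the submitters' processing notes. Annotation, counting settings and strand use: not given in the sources used here. Overlapping or near-identical genes (Hspa1a with Hspa1b, Hspd1 with Hspe1) are therefore uncertain.

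Counts were tested with edgeR 4.0.16 in R 4.3.3: filterByExpr over the 6 groups with a minimum count of 10, TMM scaling, and the robust quasi-likelihood F-test in 1 fit of 6 group means, with Benjamini-Hochberg adjustment over 13434 genes per comparison. The common biological coefficient of variation was 1.22. SE was taken as the absolute log2 change divided by the root of the F statistic. CPM uses TMM-scaled sizes. A fold against an arm at 0 is a lower bound against 3 counts per library, and pooled ratios carry 95% exact binomial intervals. The authors' RPKM served for levels and as an alternative on log2(RPKM + 1) and log2(RPKM + 0.1) with limma 3.58.1. Further alternatives were DESeq2 size factors, the DESeq2 1.42.0 Wald test, limma-voom with and without quality weights, no filter, fewer groups in the fit, replicate blocks and each library left out. Leaving out the 3 libraries with Y-linked reads was added after seeing the data. The test script was checked on simulated counts.

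The 38 genes and the other lists were chosen with earlier results of these data known. Values in every library are given for genes past the threshold and for the 2 genes of each role with the highest mean RPKM, and genes whose arms did not overlap under treatment are named. Other pathway genes are named where they passed, at most 4 per comparison. Library values of Hspa1a, Hspe1, Jun and Egr1 in every population, and of Btg1, Zfp36l1, Ppp1r15a, Hsph1, Hspd1 and Fosl2 in some populations only, were added after their values were seen. So were the sums of the TRiC, HSF1 and kinase lists by treatment.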

Additional observations from a re-analysis of the deposited data

Results flagged for a closer look

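For Jun, Ier2, Zfp36l1 and Rgs1 the arms did not overlap in PD-1- Tregs or in CD4 T cells, in opposite directions. The share of all genes with such opposite orders was not counted. Without overlap, 12.5% of all genes were higher and 14% lower in treated PD-1- Tregs, and 12.5% and 15.5% in treated CD4 T cells. Margins were small for Rgs1 in PD-1- Tregs and for Ier2 and Zfp36l1 in CD4 T cells. Jun, Ier2 and Zfp36l1 were higher in treated PD-1- Tregs and lower in treated CD4 T cells, with differences in treatment change of 1.73 for Jun (adjusted p = 0.122), 1.56 for Ier2 (0.231) and 0.82 for Zfp36l1 (0.278). Rgs1 went the other way, with -1.24 (0.242). None passed edgeR's test of the difference, and PD-1- Tregs had 2 libraries per arm. Without the 3 libraries with Y-linked reads the differences were 1.90, 1.73, 0.50 and -1.39.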

How the results depend on the processing

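Counts of the 38 genes past the threshold are given in the order PD-1+ Tregs, PD-1- Tregs, CD4 T cells and average for treatment, then PD-1+ against PD-1-, PD-1+ against CD4 and PD-1- against CD4. With edgeR they were 0, 0, 0 and 1, then 2, 0 and 2. Shares of all genes under the alternatives are not given, here or below. The counts thus compare settings only and say nothing of the 38 genes against all genes. DESeq2's Wald test gave 3, 6, 0 and 3, then 6, 7 and 6, limma-voom 1, 2, 0 and 2, with 5 and 8 in the last 2, and quality weights 4 for CD4 T cells and 0 for the average, then 0, 6 and 0. On log2(RPKM + 1) the counts were 1, 1 and 2 for PD-1+, PD-1- and the average, then 1 and 3 for the first 2 of the population comparisons. With a pseudocount of 0.1 they were 1, 1 and 2, then 5 against CD4 for PD-1+ and 4 for PD-1-. Without the low-count filter 2 passed in PD-1- treatment and 2 between PD-1+ Tregs and CD4 T cells, and fitting only the compared groups gave 0 between the Treg types and 1 between PD-1+ Tregs and CD4 T cells. Without the 3 libraries with Y-linked reads the counts were 2 in PD-1- treatment, then 1, 1 and 0. For differences in treatment change, DESeq2 gave 4 between the Treg types and 3 between PD-1- Tregs and CD4 T cells, and limma-voom 1 in each.

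Libraries with the same title number correlated at -0.011 to 0.074 across treatment and -0.033 to 0.035 across populations. With the same bracketed number and treatment, all correlations across populations were positive, at 0.0020 to 0.035. Their median was 0.016, against -0.0084 for other pairs. Correlations used deviations from group means, which mirror each other in a group of 2 libraries. Values therefore repeat, and other pairs take opposite values in part by construction, so this contrast carries no separate information. The correlations are small, and whether a bracketed number marks shared mice was not tested. With the title number as a replicate block, 0 passed in the average, 0 between the Treg types and 0 between PD-1- Tregs and CD4 T cells. Blocking by treatment and bracketed number gave 1 between the Treg types (Dusp1) and 1 between PD-1+ Tregs and CD4 T cells (Ppp1r15a). It gave 0 between PD-1- Tregs and CD4 T cells. With this block neither Klf6 nor Cd69 passed between the Treg types (adjusted p = 0.109 and 0.0873). Rgs1 and Nfkbia did not pass between PD-1- Tregs and CD4 T cells (0.0518 and 0.147).

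With each library left out, counts ran from 0 to 3 in PD-1- treatment, 0 to 4 in the average, 0 to 3 between the Treg types, 0 to 3 between PD-1+ Tregs and CD4 T cells and 0 to 6 between PD-1- Tregs and CD4 T cells. Differences in treatment change gave 0 to 2 between the Treg types and 0 to 4 between PD-1- Tregs and CD4 T cells. A lone library left in an arm is assumed to vary like the other groups. For the 26 single-gene results that passed, 441 of 638 alternatives passed as well and 197 lost the call. Among all 2859 single-gene alternatives (Hspa1b, at 0 in most libraries, was left out of them), 113 gained a call and 0 changed direction. Genes entered only with an unadjusted p below 0.05, with arms without overlap under treatment, or after passing. That choice left little room for a change of direction. The cause of lost and gained calls was not tested. Libraries number 2 or 3 per arm, and Hspa1a and Hspa1b had too few reads in Tregs to resolve smaller changes.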
